A study of Arabidopsis thaliana with 9 samples.

Results

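Transcript levels of cor27cor28 seedlings were compared with those of wild-type seedlings of the plant Arabidopsis thaliana late in the night. The comparison used 6 of the 9 RNA sequencing libraries of the series, namely the 3 titled as cor27cor28 and the 3 titled as Col-0, and all 26984 genes with a value. The cor27cor28 seedlings are labelled as mutant in both COR27 and COR28, the wild type is Col-0, the standard laboratory strain, and the cop1-6 mutant, with an allele of the ubiquitin ligase gene COP1, makes up the remaining 3 libraries. All 3 groups were seedlings aged 7 days, grown in short days and collected at ZT20, that is 20 hours after lights on, and no further treatment is named. The lesions in COR27 and COR28, the background of the mutants and whether the 3 libraries of a group came from separate batches of plants are not stated in the labels. The p-values therefore measure only the spread between these samples.

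COR27 and COR28 encode small nuclear proteins whose transcripts respond to cold and follow the circadian clock. They are known to act in light signalling together with the COP1 ubiquitin ligase and to bind chromatin at clock genes of the evening. In a seedling, the nuclear genes of the photosynthetic apparatus encode the chlorophyll-binding antenna proteins that collect light, subunits of both photosystems, and the enzymes that fix carbon. Growth at the same time rests on the nucleolus, where ribosomal RNA is modified and assembled with ribosomal proteins, and on chaperones that fold new proteins in the cytosol, the endoplasmic reticulum, the chloroplast and the mitochondria. A further set of nuclear genes, led by the alternative oxidase AOX1A, is known to be switched on when mitochondria fail.

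The deposited unit was FPKM, fragments per kilobase of transcript scaled to the mapped fragments of the library, so levels can be compared between genes but the number of reads behind them is unknown. Library sums of FPKM lay between 548059 and 562626 in cor27cor28, with 515940 to 532661 in cop1-6 and 584880 to 612465 in wild type. Over all 9 libraries the first principal component, with 61.3% of the variance, set cop1-6 apart, and the second, with 18.4%, separated cor27cor28 from wild type. Of the targeted genes, the locus of COR27 (AT5G42900) runs from 17197641 to 17199910 on the minus strand of chromosome 5 in TAIR10.1, and its level was 48, 50.1 and 47.9 FPKM in libraries labelled cor27cor28, against 12.5, 17.35 and 16.2 FPKM in wild type. The locus of COR28 (AT4G33980) runs from 16282281 to 16285229 on the minus strand of chromosome 4, and its level was 2.49, 1.48 and 2.71 FPKM in libraries labelled cor27cor28, against 2.73, 1.92 and 3.08 FPKM in wild type. COR27 was thus called higher (log2 fold change 1.61 ± 0.26 SE, adjusted p = 0.00165) and COR28 was not called (-0.16 ± 0.19 SE, adjusted p = 0.573, with overlapping libraries). A transcript level does not show whether a lesion removes the protein, so neither gene checks the label, and every direction below rests on the labels.

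Genes were tested where at least 3 of the 9 libraries had at least 1 FPKM, with limma on log2(FPKM + 1) and all 3 genotypes in 1 model, and are called where the Benjamini-Hochberg adjusted p was under 0.05. Of 17075 tested genes, 2493 (14.6%) were higher and 1245 (7.29%) lower in cor27cor28 than in wild type, 21.9% in all. Most differences were small: 137 genes (0.802%) were called higher and 52 (0.305%) lower by at least 2-fold. In 28% of the tested genes all 3 cor27cor28 libraries lay above all 3 wild-type libraries, and in 13.4% all 3 lay below. The balance between higher and lower calls depended on how the libraries were brought to a common scale. With FPKM as deposited, 33.3% of the calls were lower and the median of all log2 fold changes was 0.10. After median-of-ratios scaling 62.8% were lower, with 1260 genes (7.4%) higher and 2125 (12.5%) lower, and the median was -0.01. Setting all libraries to equal FPKM totals gave 16.3% lower, with 4322 genes (25.3%) higher and 841 (4.93%) lower, and a median of 0.19. Counts for several lists of genes are therefore also given with the other scalings. Leaving out cor27cor28 replicate 2 gave 1095 higher and 749 lower calls, leaving out cor27cor28 replicate 3 gave 1387 and 749, and leaving out wild-type replicate 2 gave 1641 and 910.

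**Figure D1:**
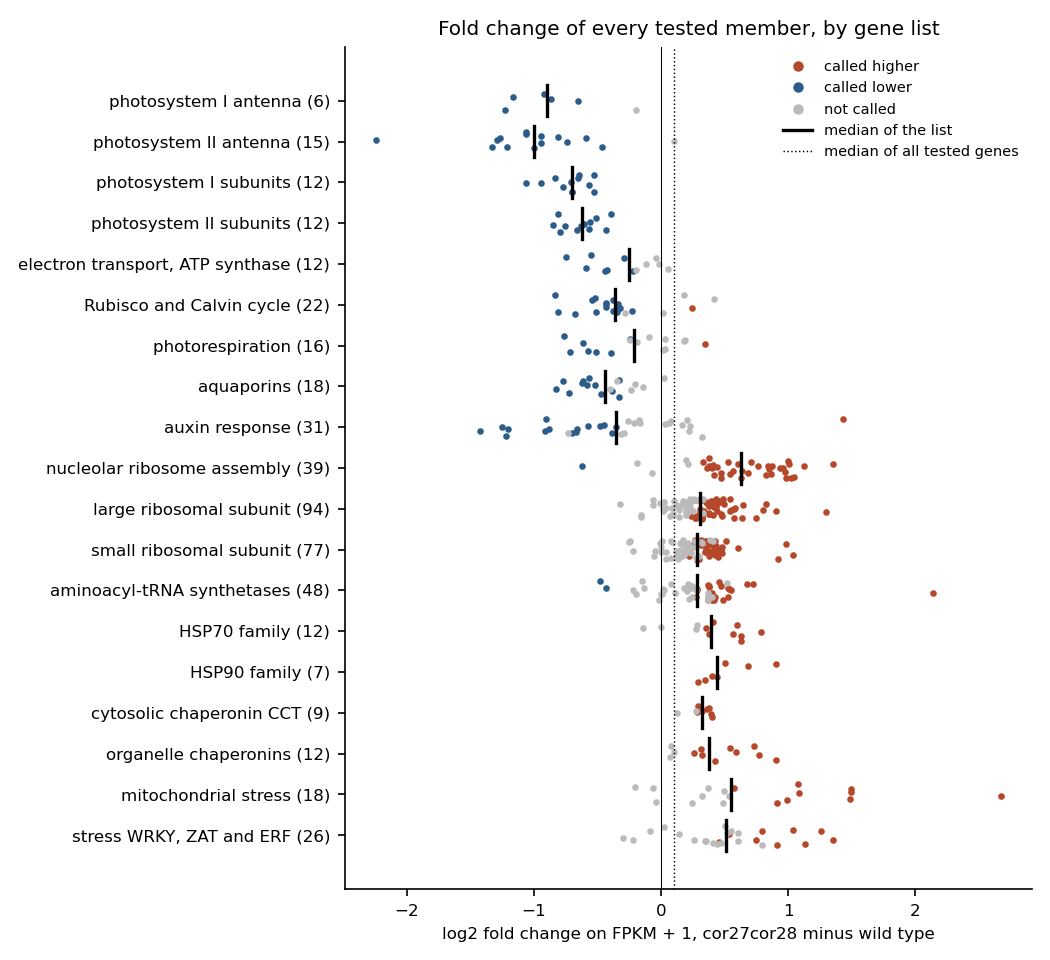
Log2 fold change on FPKM + 1 (cor27cor28 minus wild type) of every tested member of 19 gene lists, with 1 point per gene, the number of tested members in parentheses, the median of each list as a black bar and the median of all tested genes as a dotted line at 0.10. Photosystem lists lie to the left of 0, with medians between -1.0 and -0.62, and the nucleolar, ribosomal, chaperone and stress lists lie to the right, with medians between 0.28 and 0.63.

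Nuclear genes of the photosynthetic apparatus were lower in cor27cor28, most of all those of the light-harvesting antennae. Among 6 tested antenna genes of photosystem I, 5 were called lower, and of 15 antenna genes of photosystem II, 14 were called lower, with medians of -0.89 and -1.0 on the log2 scale. All 12 tested nuclear subunits of photosystem I and all 12 of photosystem II were called lower as well, with medians of -0.70 and -0.62, against 7.29% of all tested genes. Summed over both antenna lists, 21 genes took 2.96%, 2.71% and 2.71% of the FPKM sum in the cor27cor28 libraries, against 5.29%, 5.79% and 4.89% in wild type. The 24 photosystem subunit genes took 3.90% ± 0.116 (SD, n = 3) in cor27cor28 and 5.85% ± 0.192 in wild type. In both sums the groups were far apart. In seedlings, fewer cells of a type and less RNA per cell cannot be told apart.

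Within photosystem I, LHCA1 to LHCA4 encode the 4 proteins of the antenna belt. LHCA2 had 1137, 1116 and 1138 FPKM in cor27cor28, against 2156, 2062 and 1976 FPKM in wild type, and the groups lay far apart (log2 fold change -0.87 ± 0.08 SE, adjusted p = 8.78e-05). LHCA3 had 430.3, 369 and 352 FPKM in cor27cor28, against 721, 789 and 669 FPKM in wild type (-0.92 ± 0.10 SE). The difference was smaller for LHCA6, with 44.7 ± 2.87 FPKM in cor27cor28 and 70.99 ± 1.17 FPKM in wild type (SD, n = 3 each), and LHCA5 was not called at 79.5 ± 2.54 FPKM in cor27cor28 and 91.6 ± 5.57 FPKM in wild type (adjusted p = 0.0739). LHCA5 and LHCA6 are minor relatives known to link photosystem I to the NDH complex. LHCA5 was called lower with median-of-ratios scaling.

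Of the photosystem I core, PSAH2, a subunit on the side where mobile antenna docks, had 979.5, 1010 and 1047 FPKM in cor27cor28, against 1816, 1736 and 1634 FPKM in wild type. That is a log2 fold change of -0.77 ± 0.08 SE (adjusted p = 0.000179), and no library of one group reached the range of the other. The smallest changes of the list were those of PSAD-1 and PSAH-1, at -0.53 each. Paralogous copies could be split by the authors' counting, so single values of the PSAD, PSAE, PSAH, LHCB1 and LHCB2 copies are less certain than their lists.

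In photosystem II, PSBQ-2, PSBP-1 and PSBO1 encode proteins of the oxygen-evolving complex, and NPQ4 encodes PsbS, which triggers heat dissipation. PSBQ-2 had 826, 862 and 825 FPKM in cor27cor28, against 1575, 1592 and 1368 FPKM in wild type (log2 fold change -0.85 ± 0.09 SE, adjusted p = 0.000157). NPQ4 had 365, 348 and 319.5 FPKM in cor27cor28, against 616, 594 and 580.5 FPKM in wild type (-0.79 ± 0.08 SE). Both genes had well separated groups. The antenna proteins of this photosystem followed the same direction from the trimeric LHCB3, at 304 ± 14.2 FPKM in cor27cor28 and 708 ± 78.5 FPKM in wild type, to the monomeric LHCB5 and LHCB6, at -0.94 and -1.0. The single antenna gene that was not called was LHCB4.3, with 5.92 ± 0.577 FPKM in cor27cor28 and 5.52 ± 1.249 FPKM in wild type.

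**Figure D2:**
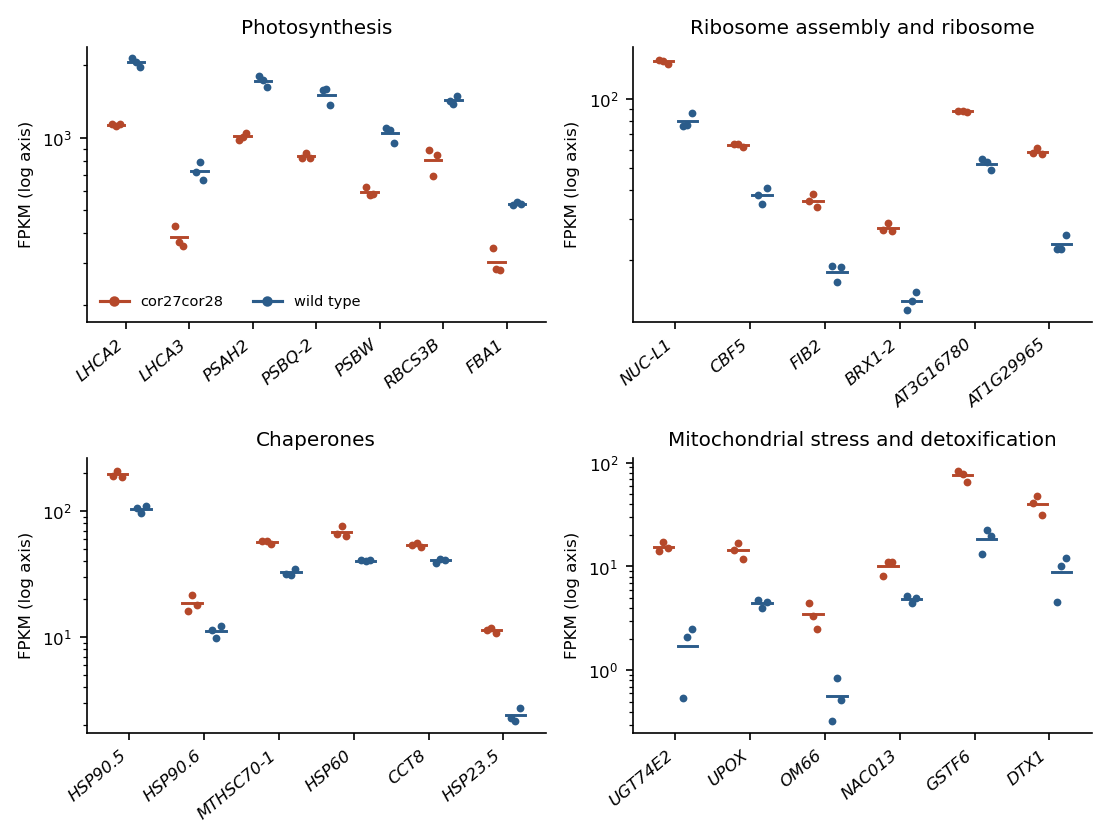
FPKM (log axis) of each of the 3 cor27cor28 libraries, left of each pair, and the 3 wild-type libraries, right, for 25 genes in 4 groups, with horizontal lines for the means. The groups do not overlap for any of the genes shown, with cor27cor28 below wild type in the photosynthesis panel and above it in the other 3.

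The promoters of LHCB2.3 and LHCA4, the antenna genes with the lowest fold change in each photosystem, are shown because both hold a G-box, the letters CACGTG that light-signalling bHLH and bZIP factors are known to bind. Sequences are 250 bases before the annotated transcript start, read in the direction of transcription from RefSeq's TAIR10.1 genome, with the motif in capitals. The LHCB2.3 window is chr3:10255656-10255905 on the plus strand and the LHCA4 window chr3:17495034-17495283 on the minus strand.
LHCB2.3: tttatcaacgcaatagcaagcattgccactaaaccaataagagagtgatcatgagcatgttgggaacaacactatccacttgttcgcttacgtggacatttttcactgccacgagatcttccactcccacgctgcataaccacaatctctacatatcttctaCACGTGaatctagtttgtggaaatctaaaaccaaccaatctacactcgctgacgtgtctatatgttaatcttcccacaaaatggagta
LHCA4: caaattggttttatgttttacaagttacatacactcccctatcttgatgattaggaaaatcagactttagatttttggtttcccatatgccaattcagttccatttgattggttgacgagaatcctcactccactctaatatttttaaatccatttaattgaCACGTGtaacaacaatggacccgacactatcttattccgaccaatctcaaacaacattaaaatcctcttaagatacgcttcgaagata
A G-box was found on either strand in 26.7% of the 15 photosystem II antenna promoters and 25% of the 12 photosystem II subunit promoters, against 6.47% of 26972 promoters of genes in the files. The I-box, GATAAG, was found in 33.3% of the 12 photosystem I subunit promoters, against 12.3% of all. Neither motif was particular to photosynthesis lists. The I-box was in 34.6% of 26 promoters of cochaperones and heat shock regulators and in 0% of 7 HSP90 promoters. The G-box was in 35.3% of 17 cold response promoters and in 0% of 19 aquaporin promoters. Over all tested genes, 9.24% of those with 1 G-box were called lower, against 7.12% of those with none. A match is a description of the letters and not evidence of binding.

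Electron transport and carbon fixation were lower to a smaller degree. Of 12 tested genes for electron carriers and the ATP synthase, 7 were called lower and none higher, with a median of -0.25. Over all tested genes 7.29% were called lower and 14.6% higher. DRT112, which encodes the main plastocyanin, had 2243, 1923 and 1972 FPKM in cor27cor28, against 3356, 3767 and 3207 FPKM in wild type (log2 fold change -0.75 ± 0.10 SE, adjusted p = 0.000622). PGR5, a protein of cyclic electron flow, was lower (log2 fold change -0.59 ± 0.08 SE), at 107 ± 4.803 FPKM in cor27cor28 and 162 ± 14.8 FPKM in wild type. FD1, a ferredoxin gene, was not called at 562 FPKM in cor27cor28 and 569 FPKM in wild type. Among 22 tested genes of Rubisco and the Calvin cycle, 17 were called lower and 1 higher (median -0.36), with 10 lower when cor27cor28 replicate 2 was left out. FBA1, a plastid aldolase, had 348, 284 and 281 FPKM in cor27cor28, against 524, 538 and 532 FPKM in wild type (-0.81 ± 0.09 SE), and its groups lay clearly apart. RBCS3B, a Rubisco small subunit, had 808 ± 103 FPKM in cor27cor28 and 1435 ± 53.8 FPKM in wild type. The member called higher was FBA3, another aldolase, at 119 FPKM in cor27cor28 and 100.4 FPKM in wild type, which was not called with median-of-ratios scaling. Leaving out any 1 library but wild-type replicate 2 left no member of this list called higher. TKL1, a plastid transketolase, was not called, at 676 FPKM in cor27cor28 and 670 FPKM in wild type.

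In photorespiration, 7 of 16 tested genes (43.8%) were lower and 1 (6.25%) higher, against 7.29% and 14.6% of all tested genes. GOX1, a peroxisomal glycolate oxidase, had 443, 406 and 396 FPKM in cor27cor28, against 695, 634 and 719 FPKM in wild type (log2 fold change -0.72 ± 0.09 SE, adjusted p = 0.000392). AGT, the serine-glyoxylate aminotransferase, and GDCH, a glycine decarboxylase subunit, fell by 0.57 and 0.51 on the log2 scale. Enzymes of chlorophyll synthesis were called lower in 8 of 20 cases, with a median of -0.13, and in 5 without cor27cor28 replicate 3 and 5 with equal totals. CHLM, the magnesium protoporphyrin methyltransferase, had 186 ± 9.48 FPKM in cor27cor28 and 245 ± 8.47 FPKM in wild type, and PORB, a protochlorophyllide oxidoreductase, 509.8 ± 18.17 FPKM in cor27cor28 and 652 ± 9.42 FPKM in wild type. The log2 fold changes of 10 tested carotenoid genes lay between -0.20 and 0.23, and 2 of these genes were called lower with median-of-ratios scaling and 2 higher with equal totals. Proteins of the plastid ribosome were called lower in 8 (24.2%) and higher in 2 (6.06%) of 33 cases. Lower calls numbered 5 under equal totals, 5 without wild-type replicate 1 and 4 without wild-type replicate 2. They numbered 3 when cor27cor28 replicate 2 or 3 was left out, beside 749 lower calls among all 17075 genes in each of these fits.

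**Figure D3:**
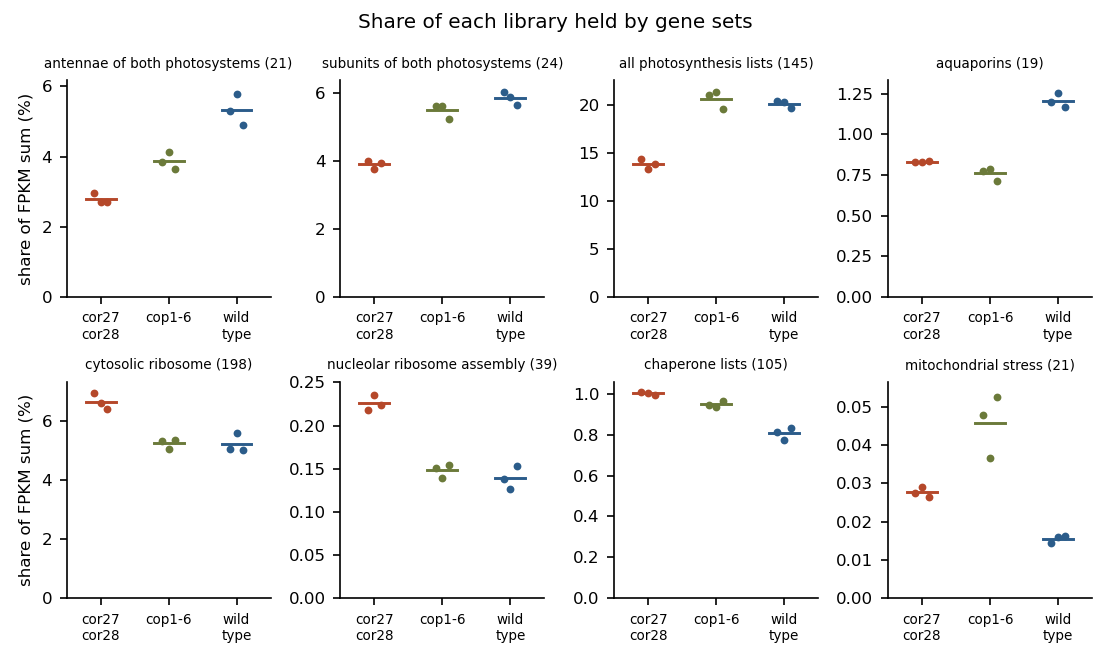
Share of the FPKM sum of each library (%) held by 8 sets of genes, with 1 point per library, means as lines, cor27cor28 at the left, cop1-6 in the middle and wild type at the right. The 145 genes of all photosynthesis lists held 13.9% in cor27cor28, 20.7% in cop1-6 and 20.15% in wild type, and the 198 proteins of the cytosolic ribosome 6.67% in cor27cor28, 5.25% in cop1-6 and 5.23% in wild type.

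Ribosome assembly moved the other way. Of 39 tested genes for nucleolar assembly factors, 34 were called higher in cor27cor28 and 1 lower, with a median log2 fold change of 0.63, against 14.6% of all tested genes called higher. With median-of-ratios scaling 29 were higher and 2 lower, with equal totals 34 and 1, and leaving out single libraries left between 27 and 34 higher. NUC-L1 (AT1G48920, TAIR10.1 chromosome 1 from 18098081 to 18101732, plus strand), a nucleolin that binds ribosomal DNA and RNA, had 148, 146 and 142 FPKM in cor27cor28, against 76.4, 77.1 and 86.7 FPKM in wild type. That is 1.81 times the mean of wild type (a log2 fold change of 0.85 ± 0.07 SE, adjusted p = 6.49e-05), and all 3 cor27cor28 libraries lay far above the highest wild-type library. FIB2, a fibrillarin that methylates ribosomal RNA, had 35.9, 38.6 and 33.9 FPKM in cor27cor28, against 18.8, 15.9 and 18.6 FPKM in wild type (0.99 ± 0.10 SE). CBF5, the pseudouridine synthase, had 63.3, 63.8 and 61.6 FPKM in cor27cor28, against 38.3, 35.04 and 40.9 FPKM in wild type. BRX1-2 (AT1G52930), a maturation factor of the large subunit, had 27.02, 28.8 and 26.7 FPKM in cor27cor28, against 12.1, 13.3 and 14.5 FPKM in wild type (1.0 ± 0.09 SE, adjusted p = 7.76e-05). In each of these genes the lowest cor27cor28 library exceeded the highest wild-type library. The member called lower was RTL2, a ribonuclease III, at 1.43 ± 0.125 FPKM in cor27cor28 and 2.75 ± 0.527 FPKM in wild type. Outside the naming rule, and picked after their values were seen, NOP56 and NOP58, which with fibrillarin form the core of box C/D particles, had 63.3 ± 5.77 and 44.8 ± 4.11 FPKM in cor27cor28, against 31 ± 6.25 and 20.17 ± 3.84 FPKM in wild type. A second list, drawn from annotation text on ribosomal RNA processing, had 21 of 35 members higher and 1 lower and shares FIB2 and other members with the first.

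Genes for proteins of the cytosolic ribosome itself were higher by less. In the large subunit 55 of 94 tested genes (58.5%) were called higher and none lower, with a median of 0.31. In the small subunit these were 37 of 77 (48.1%) and none, with a median of 0.28, against 14.6% of all tested genes called higher. These counts depended on the scale and on single libraries. With median-of-ratios scaling, which called 7.4% of all tested genes higher, they were 22 higher and 1 lower and 8 higher and 2 lower. With equal totals, which called 25.3% of all tested genes higher, they were 77 and 55 higher. Without cor27cor28 replicate 2 they were 31 and 19, without wild-type replicate 1 they were 36 and 20, and without wild-type replicate 3 they were 34 and 19. The gene with the largest difference was AT1G29965, annotated as a ribosomal protein of the L18ae/LX family (TAIR10.1 chromosome 1 from 10498310 to 10499462, minus strand), with 58.1, 60.97 and 57.8 FPKM in cor27cor28, against 22.3, 22.2 and 25.6 FPKM in wild type (log2 fold change 1.3 ± 0.08 SE, adjusted p = 4.2e-06). AT3G16780, an L19e family protein, had 88.5, 88.5 and 87.7 FPKM in cor27cor28, against 54.6, 52.97 and 49 FPKM in wild type (0.75 ± 0.07 SE). In the small subunit, the S3 family gene AT3G53870 had 385, 375 and 344 FPKM in cor27cor28, against 250.3, 287 and 252 FPKM in wild type (0.48 ± 0.08 SE). All 3 genes had separated groups, the S3 gene by the narrowest margin. Ribosomal proteins are encoded by families of close copies, so the values of a single copy are less certain than the list.

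The promoters of BRX1-2 and AT1G29965 are shown for their site II elements, TGGGCC or TGGGCT on either strand, which TCP factors bind and which are common in ribosome genes, and for a telo box, AAACCCTAA on either strand. The motifs are in capitals, and the windows are chr1:19710929-19711178 on the plus strand and chr1:10499463-10499712 on the minus strand of TAIR10.1.
BRX1-2: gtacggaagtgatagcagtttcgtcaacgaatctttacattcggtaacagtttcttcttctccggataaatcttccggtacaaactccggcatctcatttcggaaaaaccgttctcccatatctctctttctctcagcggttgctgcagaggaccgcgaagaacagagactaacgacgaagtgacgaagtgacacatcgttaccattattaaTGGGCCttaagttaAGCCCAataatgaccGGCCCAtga
AT1G29965: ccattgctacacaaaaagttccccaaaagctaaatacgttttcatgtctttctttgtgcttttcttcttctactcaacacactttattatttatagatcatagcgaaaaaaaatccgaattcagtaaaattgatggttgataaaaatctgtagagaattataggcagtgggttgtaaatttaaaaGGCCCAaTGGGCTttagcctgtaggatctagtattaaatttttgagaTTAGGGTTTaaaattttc
BRX1-2 has 3 site II elements, and AT1G29965 has 2 of them and 1 telo box. A site II element was found in 59% of the 39 nucleolar promoters, 68% of large subunit promoters and 65.9% of small subunit promoters, against 19.2% of all 26972. A telo box was found in 12.8% of the nucleolar promoters, against 2.64% of all. Across all tested genes, 20.8% of the 2706 with 2 or more site II elements were called higher, 17.9% of the 1317 with 1, and 13% of the 13041 with none. The same shares were 10.3%, 8.96% and 6.6% with median-of-ratios scaling. Of 350 tested genes with 1 telo box, 24.6% were called higher.

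Other parts of the translation apparatus followed. Among 48 tested aminoacyl-tRNA synthetases, 21 were called higher and 2 lower (median 0.28), and 16 and 3 with median-of-ratios scaling. ATKRS-1, a lysyl-tRNA synthetase, had 59.5, 73.99 and 64.3 FPKM in cor27cor28, against 39.9, 36.4 and 41.98 FPKM in wild type (log2 fold change 0.72 ± 0.10 SE, adjusted p = 0.000838). AT1G17960, annotated as a threonyl-tRNA synthetase, had 4.999, 14.9 and 9.401 FPKM in cor27cor28, against 1.07, 1.52 and 1.21 FPKM in wild type, with a wide spread in the mutant. Elongation factors were higher in 13 of 28 cases and initiation factors in 20 of 61, with 1 initiation factor lower, against 14.6% of all tested genes called higher. With median-of-ratios scaling 8 elongation and 13 initiation factors were higher and 1 of each was lower, against 7.4% and 12.5% of all tested genes. Equal totals gave 14 and 36 higher, and without cor27cor28 replicate 2 the counts were 8 and 11 higher. AT4G11120, annotated as a translation elongation factor, had 25.8 ± 0.929 FPKM in cor27cor28 and 15.4 ± 0.39 FPKM in wild type. Genes of DNA replication were higher in 7 of 18 cases and none lower, and RNR1, the large subunit of ribonucleotide reductase, had 34 ± 2.03 FPKM in cor27cor28 and 22.97 ± 0.644 FPKM in wild type. The replication count was 2 with median-of-ratios scaling, 13 with equal totals, 2 without cor27cor28 replicate 2 or 3 or wild-type replicate 3, and 4 without wild-type replicate 2.

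Chaperones of several compartments were higher, against 14.6% of all tested genes called higher. All 7 HSP90 genes were called higher (median 0.44), as were 8 of 12 HSP70 genes (0.39), 7 of 9 subunits of the cytosolic chaperonin CCT (0.32) and 9 of 12 organelle chaperonins (0.37), and none of these 4 lists had a member called lower. HSP90.5 is in both the HSP90 and the organelle list. With median-of-ratios scaling 4, 7, 4 and 6 were higher and none lower. Of 6 HSP100 proteins and disaggregases, which pull aggregated proteins apart, 1 was called higher, with 3 under equal totals and none after median-of-ratios scaling. The largest changes were in proteins of mitochondria and chloroplasts. HSP90.5 (AT2G04030, TAIR10.1 chromosome 2 from 1281754 to 1286144, plus strand), the chloroplast HSP90, had 188, 209.6 and 188 FPKM in cor27cor28, against 106, 96.05 and 109.8 FPKM in wild type. This was 1.88 times the mean of wild type (a log2 fold change of 0.9 ± 0.09 SE, adjusted p = 0.000152), with a wide gap between the groups. HSP90.6, the mitochondrial HSP90, had 16.3, 21.6 and 17.9 FPKM in cor27cor28, against 11.4, 9.796 and 12.3 FPKM in wild type (0.69 ± 0.13 SE). MTHSC70-1, a mitochondrial HSP70, had 58.3, 58.4 and 54.5 FPKM in cor27cor28, against 31.7, 31.4 and 34.7 FPKM in wild type (0.79 ± 0.08 SE). HSP60, the mitochondrial chaperonin, had 65.8, 76.1 and 63.3 FPKM in cor27cor28, against 40.6, 39.9 and 41.2 FPKM in wild type (0.73 ± 0.09 SE, adjusted p = 0.000442). For the last 3 genes, too, each cor27cor28 library exceeded each wild-type library.

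In the cytosol and the endoplasmic reticulum the differences were smaller. CCT8 had 54.02, 55.7 and 52 FPKM in cor27cor28, against 39.01, 41.9 and 41.2 FPKM in wild type (log2 fold change 0.4 ± 0.07 SE), and the 7 called CCT subunits ranged from 0.28 to 0.40. BIP1, a luminal HSP70, had 51.3 ± 0.769 FPKM in cor27cor28 and 33.7 ± 1.83 FPKM in wild type (0.59 ± 0.10 SE), and 6 of 20 genes for folding in the endoplasmic reticulum were called higher, with 1 after median-of-ratios scaling, 12 with equal totals, 3 without cor27cor28 replicate 2 or wild-type replicate 3 and 2 without cor27cor28 replicate 3. HSC70-1, the most abundant HSP70 transcript, was not called, at 891 ± 84.6 FPKM in cor27cor28 and 979 ± 22.9 FPKM in wild type. Of 24 tested cochaperones and heat shock regulators 6 (25%) were higher, against 14.6% of all tested genes, with 4 after median-of-ratios scaling or without cor27cor28 replicate 2 and 11 with equal totals. They were led by ROF1, an FKBP-type peptidyl-prolyl isomerase, at 47.6 ± 2.05 FPKM in cor27cor28 and 30.4 ± 2.77 FPKM in wild type. HSFA1D, a heat shock factor, was not called, at 8.45 ± 1.17 FPKM in cor27cor28 and 6.699 ± 0.577 FPKM in wild type. Of 5 tested small heat shock proteins 1 was called, the mitochondrial HSP23.5. It had 11.5, 11.9 and 10.8 FPKM in cor27cor28, against 2.31, 2.17 and 2.73 FPKM in wild type (1.87 ± 0.27 SE, adjusted p = 0.001), so that the groups were far apart. Within the 250-base promoters, the heat shock element GAANNTTC was found in none of the 7 HSP90 and none of the 13 HSP70 genes, in 6 of 26 cochaperones and heat shock regulators (23.1%), in 3 of 12 organelle chaperonins and 3 of 12 small heat shock proteins (25% each), and in 9.52% of all genes. A site II element was found in 7 of the 13 HSP70 promoters and, among HSP90 genes, in that of HSP90.5 alone, shown here with its 3 elements in capitals (chr2:1281504-1281753, plus strand, TAIR10.1).
HSP90.5: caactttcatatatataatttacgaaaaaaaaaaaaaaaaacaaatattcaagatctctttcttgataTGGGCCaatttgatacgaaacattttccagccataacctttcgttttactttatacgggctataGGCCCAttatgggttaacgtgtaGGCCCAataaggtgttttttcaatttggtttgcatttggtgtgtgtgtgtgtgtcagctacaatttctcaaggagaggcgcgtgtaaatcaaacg

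**Figure D4:**
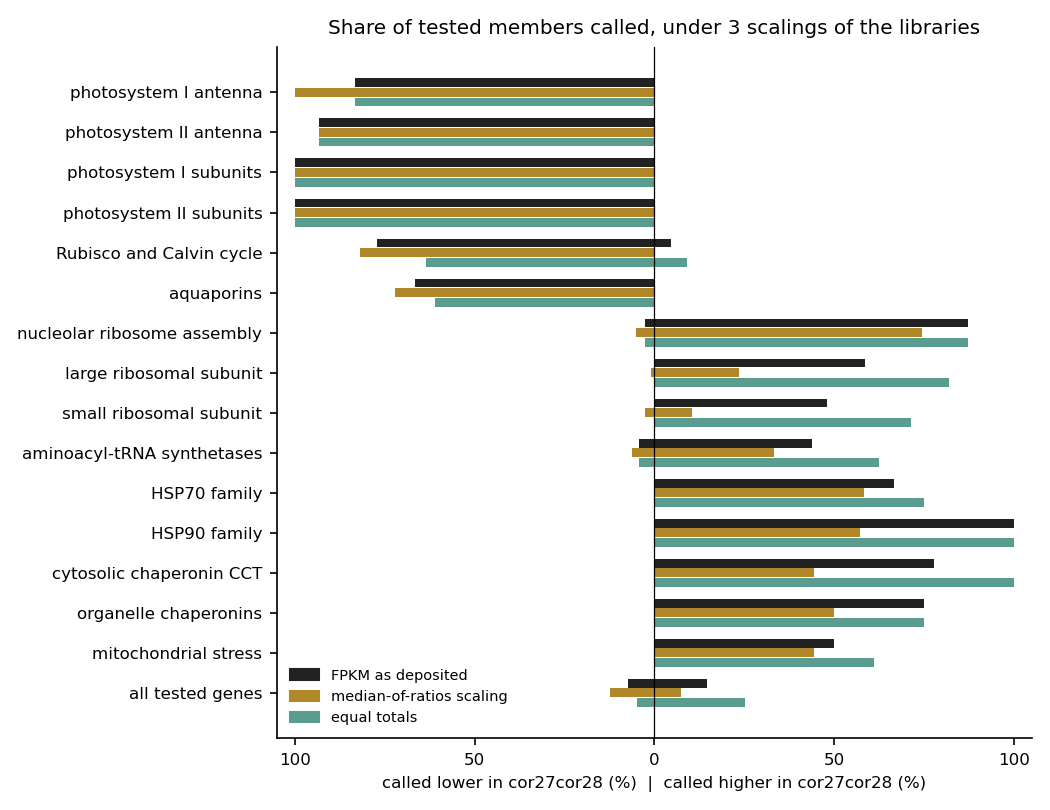
Percent of the tested members of each list called lower (bars to the left) and higher (bars to the right) in cor27cor28, with FPKM as deposited, with equal totals and after median-of-ratios scaling, and the same for all tested genes in the last row. The bars of the photosystem lists point left and those of the nucleolar and chaperone lists point mainly right in all 3 versions, while the ribosomal subunit lists shrink to 22 of 94 and 8 of 77 with median-of-ratios scaling.

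Genes known to respond to mitochondrial dysfunction were higher in part. Of 18 tested members, 9 (50%) were called higher and none lower (median 0.55), against 14.6% of all tested genes called higher. The count was 8 with median-of-ratios scaling, against 7.4% of all. It was 5 with a minimum of 5 FPKM, which leaves fewer members tested. UGT74E2 (AT1G05680, TAIR10.1 chromosome 1 from 1703002 to 1704838, minus strand), a glucosyltransferase of indole-3-butyric acid, had 14.1, 17.1 and 14.9 FPKM in cor27cor28, against 0.545, 2.11 and 2.49 FPKM in wild type (log2 fold change 2.67 ± 0.30 SE, adjusted p = 0.000215). UPOX, a small mitochondrial protein, had 14.4, 16.9 and 11.8 FPKM in cor27cor28, against 4.73, 3.94 and 4.57 FPKM in wild type (1.49 ± 0.18 SE, adjusted p = 0.000325). OM66, an outer membrane protein of mitochondria, had 4.502, 3.35 and 2.52 FPKM in cor27cor28, against 0.327, 0.846 and 0.521 FPKM in wild type. NAC013, a transcription factor of this response, had 8.17, 11.2 and 11.1 FPKM in cor27cor28, against 5.23, 4.45 and 4.98 FPKM in wild type. All 4 genes were higher with no overlap, though OM66 was under 1 FPKM in each wild-type library. AOX1A, picked after its values were seen, had 21.4 ± 1.43 FPKM in cor27cor28 and 10.4 ± 2.27 FPKM in wild type (0.99 ± 0.16 SE). NAC017, known as the regulator upstream of this response, was not called at 25.5 FPKM in cor27cor28 and 26.3 FPKM in wild type, nor were the alternative dehydrogenases NDA1, NDA2 and NDB2.

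The promoter of UPOX is shown because it holds the mitochondrial dysfunction motif, the letters CTTG followed 5 bases later by CAAG or CACG on either strand, to which NAC013 and NAC017 are known to bind. The motif is in capitals (chr2:9254128-9254377, plus strand, TAIR10.1).
UPOX: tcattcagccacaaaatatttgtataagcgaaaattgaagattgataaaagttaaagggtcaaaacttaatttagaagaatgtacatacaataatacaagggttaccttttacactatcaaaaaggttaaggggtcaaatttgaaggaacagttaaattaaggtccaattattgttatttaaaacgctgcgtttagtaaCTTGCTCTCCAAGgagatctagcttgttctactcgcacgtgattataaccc
The motif was found in 23.8% of the 21 promoters of this list, against 1.2% of all promoters. It was defined in genes of this response, UPOX among them. Of 138 tested genes with 1 match, 26.1% were called higher, against 14.5% of those with none. With 2 or more matches there were 5 tested genes, of which 4 were called higher.

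The 15 highest called genes with a symbol, at least 10 FPKM on average and no overlap had log2 fold changes between 1.2 and 2.94. In falling order they were EARLI1, FTM1, HB1, AZI1, ORS1, DTX1, GSTF6, GRP7, COR27, ABCC3, RFNR1, TOM7-2, SOT12, MIOX2 and G6PD3. FTM1, a stearoyl-ACP desaturase, had 101, 68.8 and 91.4 FPKM in cor27cor28, against 13.1, 10.7 and 15.2 FPKM in wild type (log2 fold change 2.65 ± 0.25 SE, adjusted p = 0.000116). ORS1, a small protein that promotes organ growth, had 27.4, 33.2 and 23.97 FPKM in cor27cor28, against 5.41, 6.97 and 3.102 FPKM in wild type. Both genes had cor27cor28 libraries far above those of wild type. RFNR1, a root-type ferredoxin reductase, had 55.8 ± 6.75 FPKM in cor27cor28 and 20.16 ± 4.57 FPKM in wild type. TOM7-2, a subunit of the import pore of mitochondria, had 19.5 ± 5.86 FPKM in cor27cor28 and 7.796 ± 4.32 FPKM in wild type. MIOX2, a myo-inositol oxygenase, and G6PD3, a plastid glucose-6-phosphate dehydrogenase, had 21.9 ± 2.52 and 18.1 ± 2.95 FPKM in cor27cor28, against 8.77 ± 1.57 and 7.29 ± 1.26 FPKM in wild type.

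Others of these 15 genes encode enzymes and carriers of detoxification. GSTF6, a glutathione transferase, had 83.8, 77.8 and 64.5 FPKM in cor27cor28, against 13.3, 22.3 and 19.6 FPKM in wild type, with log2 fold change 2.0 ± 0.58 SE. The transporter genes DTX1, a MATE efflux carrier, and ABCC3, an ABC transporter, had 39.9 ± 8.29 and 32.1 ± 6.13 FPKM in cor27cor28, against 8.92 ± 3.95 and 10.9 ± 2.13 FPKM in wild type. SOT12, a sulfotransferase, had 48.3 ± 6.33 FPKM in cor27cor28 and 19.1 ± 4.75 FPKM in wild type. Among 117 tested cytochrome P450 genes, 13 (11.1%) were higher and 22 (18.8%) lower, against 14.6% and 7.29% of all tested genes. After median-of-ratios scaling 5 were higher and 27 lower, against 7.4% and 12.5% of all. CYP81D8, which is not among those 15 genes, had 11.1 ± 1.92 FPKM in cor27cor28 and 3.18 ± 1.24 FPKM in wild type. The lipid-transfer genes EARLI1 and AZI1, tandem copies linked to systemic immunity and cold, reached 514, 602 and 560.5 FPKM and 1014, 1111 and 1031 FPKM in cor27cor28, against 74.4, 49.4 and 102 FPKM and 186, 160.1 and 241 FPKM in wild type. In each of these genes the groups were separate. EARLI1 had 132, 60.7 and 709 FPKM and GSTF6 54.4, 39.02 and 349.9 FPKM in the cop1-6 libraries, a spread that enters the shared model. In a fit of the 6 libraries alone the adjusted p values of EARLI1, AZI1 and GSTF6 were 5.44e-06, 7.68e-07 and 2.12e-05. GSTF6 was no longer called when any 1 of these 6 libraries was left out of the model of all genotypes (log2 fold changes of 1.79 to 2.15).

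By list, 10 of 38 tested glutathione transferases were higher and 2 lower, 7 and 2 with median-of-ratios scaling, and 9 of 26 stress-related WRKY, ZAT and ERF factors and camalexin genes were higher and none lower (median 0.51), 5 with median-of-ratios scaling. Without cor27cor28 replicate 2 these counts were 4 and 4 higher, without cor27cor28 replicate 3 they were 5 and 5, without wild-type replicate 1 they were 6 and 4, and without wild-type replicate 3 there were 6 glutathione transferases and without wild-type replicate 2 there were 5 stress factors. ZAT12, a zinc finger factor of oxidative stress, had 3.398, 2.74 and 3.29 FPKM in cor27cor28, against 0.495, 0.8897 and 0.823 FPKM in wild type (log2 fold change 1.26 ± 0.18 SE, adjusted p = 0.000848). PAD3, the last enzyme of camalexin synthesis, had 3.51, 1.32 and 2.56 FPKM in cor27cor28, against 0.194, 0.504 and 0.244 FPKM in wild type. Both were low in wild type and higher in every cor27cor28 library. Antioxidant enzymes went both ways, with 9 of 29 higher and 6 lower: SAPX, the stromal ascorbate peroxidase, had 67.1 ± 4.58 FPKM in cor27cor28 and 41.5 ± 2.47 FPKM in wild type, and TAPX, its thylakoid counterpart, 50.5 ± 1.303 FPKM in cor27cor28 and 82.8 ± 9.95 FPKM in wild type. After median-of-ratios scaling 5 antioxidant genes were higher and 6 lower. Equal totals gave 12 higher and 6 lower. Leaving out cor27cor28 replicate 2 left 3 antioxidant genes higher, and leaving out wild-type replicate 3 left 5. In the salicylate list 1 of 8 members was higher and none lower, and in the jasmonate list 2 of 19 were higher and 2 lower (10.5% each, median -0.14), against 14.6% of all tested genes higher and 7.29% lower. In the 26S proteasome, 11 of 28 subunits were higher and 1 lower, with 4 higher after median-of-ratios scaling, 19 with equal totals, 5 without cor27cor28 replicate 2, 6 without cor27cor28 replicate 3 and 7 without wild-type replicate 3. RPT3, an ATPase of its base, had 83.4 ± 4.17 FPKM in cor27cor28 and 61.3 ± 0.893 FPKM in wild type.

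Clock genes of the evening split. Of 13 tested, 4 (30.8%) were called higher and 3 (23.1%) lower, against 14.6% and 7.29% of all tested genes. The split was 4 and 4 with median-of-ratios scaling, against 7.4% and 12.5% of all. It was 4 and 3 with equal totals, and 1 was lower without cor27cor28 replicate 3. GRP7 (AT2G21660, TAIR10.1 chromosome 2 from 9265084 to 9266557, minus strand), an RNA-binding protein that forms a slave oscillator of the clock, had 609.5, 508 and 536 FPKM in cor27cor28, against 143, 144 and 146 FPKM in wild type. It was 3.82 times the mean of wild type (a log2 fold change of 1.92 ± 0.09 SE, adjusted p = 6.18e-07), the lowest adjusted p among the named genes, with very even wild-type libraries. Its paralogue GRP8, with which GRP7 is known to form a feedback pair, had 38.7, 36.5 and 36.3 FPKM in cor27cor28, against 35.2, 33.3 and 36.5 FPKM in wild type, and these groups overlapped. JMJD5, a histone demethylase relative of the evening loop, had 30.4, 30.7 and 25.6 FPKM in cor27cor28, against 12.7, 13.04 and 17.38 FPKM in wild type (0.97 ± 0.13 SE). LUX, the DNA-binding subunit of the evening complex, went the other way, with 7.99, 6.94 and 7.41 FPKM in cor27cor28, against 10.5, 12.8 and 11.3 FPKM in wild type (-0.57 ± 0.10 SE, adjusted p = 0.0026), and no overlap. Named after their values were seen, PRR5 had 4.54, 3.55 and 3.65 FPKM in cor27cor28, against 1.77, 1.07 and 2.17 FPKM in wild type, while TOC1 had 24.1 ± 2.38 FPKM in cor27cor28 and 21.01 ± 1.801 FPKM in wild type and was not called.

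Promoters of GRP7 and GRP8 are shown with the evening element, AAAATATCT on either strand, in capitals. It is the motif that factors of the CCA1 and RVE family bind. The windows are chr2:9266558-9266807 and chr4:18275217-18275466, both on the minus strand of TAIR10.1.
GRP7: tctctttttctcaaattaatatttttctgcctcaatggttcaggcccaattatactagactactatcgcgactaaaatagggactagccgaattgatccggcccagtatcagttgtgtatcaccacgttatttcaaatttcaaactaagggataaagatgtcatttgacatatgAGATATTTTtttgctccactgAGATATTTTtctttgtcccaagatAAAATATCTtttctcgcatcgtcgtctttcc
GRP8: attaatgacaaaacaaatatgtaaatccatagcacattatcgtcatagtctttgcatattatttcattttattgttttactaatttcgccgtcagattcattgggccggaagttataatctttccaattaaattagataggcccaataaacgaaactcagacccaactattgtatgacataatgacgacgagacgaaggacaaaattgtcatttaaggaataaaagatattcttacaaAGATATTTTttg
GRP7 has 3 matches and GRP8 has 1. An evening element was found in 46.7% of the 15 promoters of the evening list, against 2.34% of all promoters. Of 403 tested genes with 1 match, 18.9% were called higher, and of those with none 14.5%.

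Among 14 tested morning genes, 1 (7.14%) was higher and 2 (14.3%) lower, against 14.6% and 7.29% of all tested genes. RVE4, an activator of evening genes, had 83.4, 90.8 and 77.4 FPKM in cor27cor28, against 138, 129 and 136 FPKM in wild type (log2 fold change -0.68 ± 0.09 SE, adjusted p = 0.000653). Its groups were far apart, whereas CCA1 was not called, at 43.4 ± 5.15 FPKM in cor27cor28 and 39.5 ± 4.72 FPKM in wild type. LHY was higher at 163 ± 17.1 FPKM in cor27cor28 and 129 ± 14.8 FPKM in wild type, a call not made without cor27cor28 replicate 2 or 3 or wild-type replicate 2 (adjusted p between 0.0913 and 0.143) nor with median-of-ratios scaling (0.20, adjusted p = 0.146). Starch breakdown, which runs at night, had 4 of 12 genes higher and 1 lower, or 4 and 3 after median-of-ratios scaling. Equal totals gave 6 higher and none lower. ISA3, the debranching enzyme isoamylase, had 11.6, 14.6 and 12.98 FPKM in cor27cor28, against 3.49, 4.85 and 3.61 FPKM in wild type (1.5 ± 0.13 SE, adjusted p = 7.29e-05). SEX1, the glucan water dikinase, had 28.02 ± 0.978 FPKM in cor27cor28 and 19.8 ± 0.849 FPKM in wild type, and the disproportionating enzymes DPE1 and DPE2 rose by 0.50 and 0.40 on the log2 scale. BAM3, the main plastid beta-amylase, was called lower, at 86.6 FPKM in cor27cor28 and 110.8 FPKM in wild type with overlapping libraries, but not with equal totals. No starch breakdown gene was called lower without cor27cor28 replicate 2 or 3 or wild-type replicate 1 or 3.

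**Figure D5:**
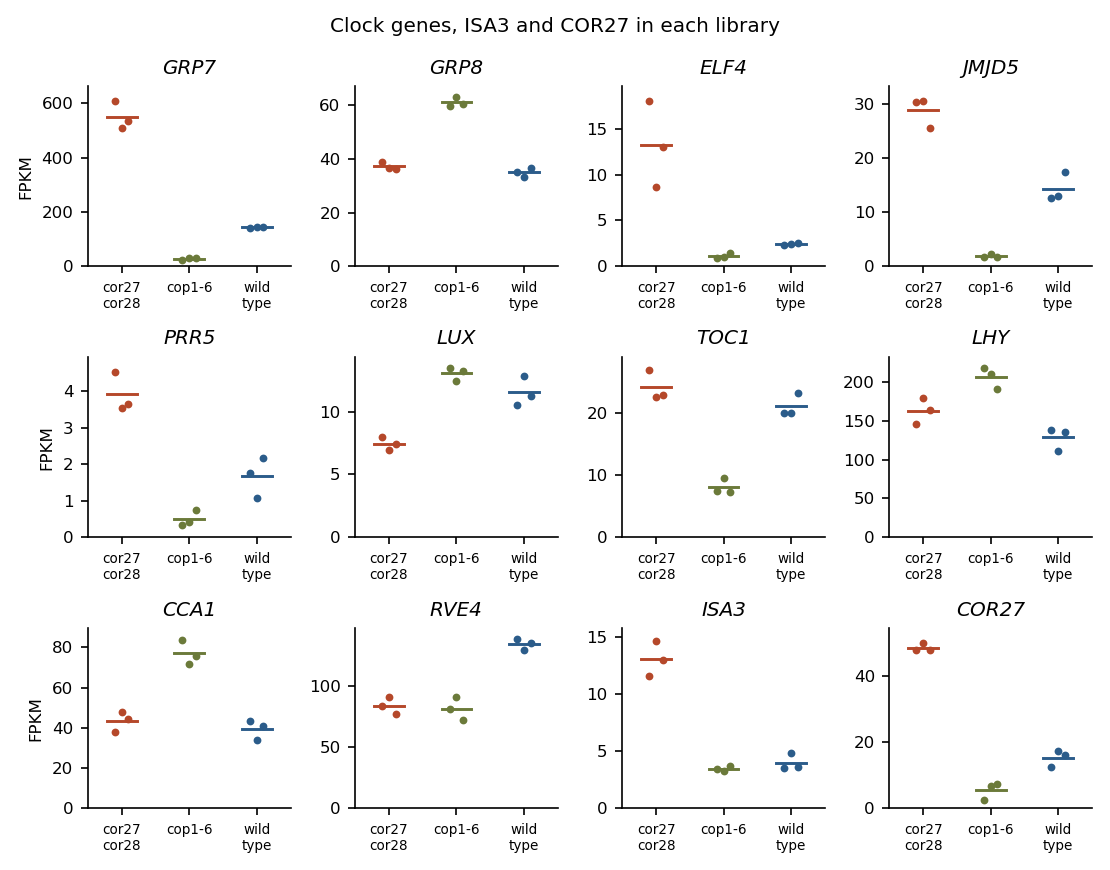
FPKM of each library for 10 clock genes, ISA3 and COR27, with cor27cor28 at the left, cop1-6 in the middle and wild type at the right of each panel, and means as lines. GRP7, ELF4, JMJD5, PRR5, ISA3 and COR27 are highest in cor27cor28, while GRP8, TOC1 and CCA1 overlap between cor27cor28 and wild type.

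Outside photosynthesis, aquaporins were lower as well. Of 18 tested, 12 (66.7%) were called lower and none higher (median -0.44), against 7.29% and 14.6% of all tested genes. Under the other scalings 13 and 11 were lower. TIP2;1, a water channel of the vacuole membrane, had 938, 957 and 927 FPKM in cor27cor28, against 1612, 1814 and 1589 FPKM in wild type (log2 fold change -0.83 ± 0.09 SE, adjusted p = 0.000198). PIP3, a channel of the plasma membrane, had 569, 553 and 567 FPKM in cor27cor28, against 835, 849 and 822 FPKM in wild type (-0.57 ± 0.07 SE). Both had tight, well separated groups. Among 33 cell wall genes 10 (30.3%) were lower and 2 (6.06%) higher. Lower calls numbered 4 under equal totals or without cor27cor28 replicate 3 or wild-type replicate 2. They numbered 6 without any 1 of the others except wild-type replicate 3. EXPA8, an expansin, had 28.9, 44.1 and 44.1 FPKM in cor27cor28, against 69.5, 83.5 and 62.4 FPKM in wild type. Auxin-responsive genes were lower in 15 of 31 cases (48.4%) and higher in 1 (3.23%), and SAUR63 had 8.33 ± 2.08 FPKM in cor27cor28 and 16.3 ± 0.75 FPKM in wild type. Of 37 tested phytochrome-interacting factors and light regulators, 4 (10.8%) were higher and 3 (8.11%) lower, with a median of -0.02. These shares lay near the 14.6% and 7.29% of all tested genes. Among the called members, PIF4, a growth-promoting bHLH factor, had 1.17, 2.25 and 1.39 FPKM in cor27cor28, against 4.11, 3.94 and 3.62 FPKM in wild type (-0.93 ± 0.16 SE). HYH, a bZIP factor of the light response, was higher, with 46.97, 69.8 and 58.3 FPKM in cor27cor28, against 34, 30.1 and 33.04 FPKM in wild type (0.81 ± 0.12 SE), and neither gene had overlapping groups.

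Cold-regulated genes were lower in 4 of 11 cases (36.4%) and higher in 1 (9.09%), against 7.29% and 14.6% of all tested genes. COR413IM1, a protein of the inner chloroplast envelope, had 1.75, 1.14 and 1.91 FPKM in cor27cor28, against 9.88, 10.3 and 9.78 FPKM in wild type (log2 fold change -2.09 ± 0.21 SE, adjusted p = 0.000141). Its neighbour COR413IM2 had 4.47 ± 0.441 FPKM in cor27cor28 and 8.8 ± 2.05 FPKM in wild type. The floral repressor FLC had 2.11, 2.66 and 2.62 FPKM in cor27cor28, against 7.596, 6.36 and 5.62 FPKM in wild type (-1.12 ± 0.16 SE, adjusted p = 0.000891), so that all 3 genes were lower without overlap. FRO6, a ferric reductase of leaves, and STOMAGEN, a peptide that promotes stomata, had 9.19 ± 0.467 and 17.2 ± 2.96 FPKM in cor27cor28, against 19.4 ± 1.73 and 35.9 ± 1.97 FPKM in wild type. AOS, the allene oxide synthase of jasmonate synthesis, had 23.4 ± 1.21 FPKM in cor27cor28 and 43.6 ± 5.47 FPKM in wild type.

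Marker lists of tissues did not all move the same way. Beside them, 7.29% of all tested genes were called lower and 14.6% higher. The 3 mesophyll markers were all lower, with a summed level between 17240 and 19600 FPKM in cor27cor28 and between 30050 and 33790 FPKM in wild type, and all 3 are photosynthesis genes already counted above. Of 10 root markers 6 were tested and 4 called lower, and the sum ranged from 18.3 to 26.01 FPKM in cor27cor28 and from 28.4 to 34.1 FPKM in wild type. CASP2, a protein of the root endodermis, had 3.89, 3.95 and 4.36 FPKM in cor27cor28, against 7.08, 7.56 and 6.69 FPKM in wild type (-0.68 ± 0.12 SE, adjusted p = 0.00245), while the root hair markers EXPA7, RSL4, COBL9 and PRX44 were under 1 FPKM on average in both groups. Leaving out any 1 library but wild-type replicate 3 left 2 root markers called. In the vascular list 3 of 6 tested markers were lower and none higher, but with equal totals none was lower and 1 higher, and leaving out any 1 library left at most 1 lower. Of 11 seed and embryo markers 3 were tested, with log2 fold changes between -0.48 and 0.03, and SESA1, SESA2 and SESA4 were listed at 0 in all 6 libraries. Of 4 epidermis markers 1 was called higher and none lower, namely PDF2, at 37.02 ± 3.08 FPKM in cor27cor28 and 29.8 ± 3.56 FPKM in wild type, with overlapping libraries. PDF2 was not called with median-of-ratios scaling, nor without cor27cor28 replicate 2 or 3 or wild-type replicate 2 or 3. Of 5 guard cell markers 1 was called higher and none lower, namely MYB60, a guard cell transcription factor, at 9.74, 13.7 and 12.3 FPKM in cor27cor28, against 7.93, 6.32 and 8.29 FPKM in wild type (0.6 ± 0.13 SE, adjusted p = 0.00843). The meristem marker STM and the flower marker SEP3, the only tested members of their lists, were not called. The part of tissue composition in the gene lists was not tested. Among 14 reference genes ACT2 was called lower, at 216 ± 24.2 FPKM in cor27cor28 and 345 ± 12.5 FPKM in wild type. ACT8 was also called lower, but not with equal totals, and EF1ALPHA higher, but not with median-of-ratios scaling. Leaving out any 1 library but cor27cor28 replicate 1 left 1 reference gene lower. Without cor27cor28 replicate 2 none was higher.

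Both mutants share the same wild-type libraries, so their difference was taken from the direct contrast of cor27cor28 with cop1-6. There 9666 genes (56.6%) were higher and 1569 (9.19%) lower in cor27cor28, while median-of-ratios scaling gave 14.1% higher and 19.4% lower, and equal totals 44.6% higher and 10.8% lower, which are alternatives chosen after seeing the data. Antenna genes of photosystem II were lower in cor27cor28 than in cop1-6 in 13 of 15 cases and higher in 1 under each of these scalings. The higher one was LHCB1.4, with 209 ± 9.52 FPKM in cor27cor28, 78.6 ± 3.54 FPKM in cop1-6 and 507 ± 63.8 FPKM in wild type. All 6 antenna genes of photosystem I were lower as well. Of 39 nucleolar genes, 36 were higher in cor27cor28 than in cop1-6 and none lower, and 11 were higher with median-of-ratios scaling. Counts for ribosomal proteins depended more on the scale, with 90 of 94 and 73 of 77 higher as deposited and 8 and 1 with median-of-ratios scaling. All 9 CCT subunits were higher, or 6 with median-of-ratios scaling. Of 12 HSP70 genes 4 were higher and 2 lower, or 1 and 6 with that scaling. Mitochondrial stress genes were higher in 6 and lower in 3 of 18 cases (median -0.01), or 1 and 5 of 17 with that scaling.

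Single genes separated the mutants further. GRP7 had 551 ± 52.4 FPKM in cor27cor28 and 28.3 ± 2.77 FPKM in cop1-6 (log2 fold change 4.24, adjusted p = 1.48e-11), while GRP8 had 37.2 ± 1.34 FPKM in cor27cor28 and 60.98 ± 1.799 FPKM in cop1-6 (-0.7, adjusted p = 8.96e-06). PORB had 509.8 ± 18.17 FPKM in cor27cor28 and 36.5 ± 0.957 FPKM in cop1-6 (3.77). JMJD5 had 28.9 ± 2.83 FPKM in cor27cor28 and 1.86 ± 0.306 FPKM in cop1-6 (3.39). AOX1A, picked after its values were seen, was lower in cor27cor28, at 21.4 ± 1.43 FPKM, than in cop1-6, at 36.3 ± 7.26 FPKM (-0.72, adjusted p = 0.00193). HSP23.5 had 11.4 ± 0.567 FPKM in cor27cor28 and 12.2 ± 5.86 FPKM in cop1-6, UGT74E2 had 15.4 ± 1.57 FPKM in cor27cor28 and 25.7 ± 9.23 FPKM in cop1-6, and OM66 had 3.46 ± 0.996 FPKM in cor27cor28 and 3.27 ± 1.16 FPKM in cop1-6. None of these 3 was called in the direct contrast (adjusted p = 0.91, 0.0739 and 0.783). That does not show that the mutants were alike in these genes, all 3 of which were called higher in cor27cor28 than in wild type.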

How the data were processed

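RNA of seedlings was sequenced in 9 libraries, 3 per genotype. The authors deposited 1 table of FPKM values per library, with no read counts, so the depth per library is unknown and no counting interval can be given. Trimmomatic 0.36, HISAT2 2.2.1.0, Cufflinks, TopHat, Bowtie2, DESeq 1.18.0 and the TAIR10 build are named per the submitters' processing notes, with no role or order. DESeq was not used here, since FPKM are not counts. Genes on chloroplast and mitochondrial loci, 13 entries without a gene name and 39 list members were not analysed here. All 26984 gene names matched RefSeq's TAIR10.1 annotation by locus.

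Samples were grouped by their titles. The 17075 genes that reached 1 FPKM in 3 or more of 9 libraries were transformed to log2(FPKM + 1) and fitted with limma 3.58.1 (R 4.3.3), with a variance trend, 3 genotypes in 1 model and no replicate block. P-values were adjusted over all tested genes by the Benjamini-Hochberg method and called under 0.05. Fold changes on this scale understate those of low genes, and standard errors (SE) are limma's. Per-gene levels are means ± SD over 3 libraries of linear FPKM. The fit was also run on simulated data that took their means and spread from these libraries. Alternatives were a pseudocount of 0.1 or 5, no filter or a minimum of 5 FPKM, median-of-ratios scaling, equal totals, the 6 libraries alone, no variance trend, the replicate number as a block, and leaving out each library.

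Gene groups were 73 lists, 58 of symbols and 15 families read from the annotation text, with 1532 distinct members tested. These lists were chosen with earlier results of these data known. The text names up to 4 called members per list with the lowest adjusted p, the 15 highest and the 15 lowest called genes that have a symbol, average 10 FPKM or more and do not overlap between groups, and further members as examples of those not called. Exceptions are said to be picked after their values were seen. LHCA6, LHCB5, LHCB6, PSAD-1, PSAH-1, BAM3, FBA3 and RTL2 were also picked in that way. Promoters are the 250 bases before the annotated start in TAIR10.1. Python 3.11.15, pandas 2.3.3, numpy 2.4.6 and matplotlib 3.10.9 were used.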

Additional observations from a re-analysis of the deposited data

How the results depend on the processing

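Scaling and single libraries both moved the counts. With equal totals 4322 genes (25.3%) were higher, and with median-of-ratios scaling 1260 (7.4%) were higher and 2125 (12.5%) lower. Median-of-ratios scaling gave 4 higher genes in the HSP90 list, 4 in the CCT list, 22 among large and 8 among small subunit ribosomal proteins, and, for cor27cor28 against cop1-6, all genes, 5697 calls. A minimum of 5 FPKM left 5 mitochondrial stress genes higher, with fewer members tested. At least 2-fold higher calls numbered 280 with a pseudocount of 0.1 and 39 with a pseudocount of 5. Leaving out 1 library at a time gave between 1844 and 3927 called genes (1095 to 2823 higher, 749 to 1104 lower). It gave 10 to 17 lower genes of Rubisco and the Calvin cycle, and 31 to 63 higher large subunit and 19 to 47 higher small subunit proteins. Nucleolar genes kept 27 to 34 higher, HSP70 7 to 8, HSP90 5 to 6, CCT 5 to 7 and mitochondrial stress 7 to 10, and all 24 photosystem subunits were lower throughout.

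The naming rule gave 254 genes other than COR27 and COR28, all called with the settings of the report, of which 198 were called under each alternative in which they were tested and none reversed. Genes named as not called are not among them. The number no longer called was 27 with median-of-ratios scaling, 13 with equal totals, 25 without a filter and 21 to 43 without 1 library. COR28, not called in any setting, ranged from -0.30 to 0.02 on the log2 scale with 1 library left out, and was 0.02 without cor27cor28 replicate 2. The cause of these differences was not tested.

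With the replicate block 1911 genes were higher and 1056 lower, and 15 named genes were no longer called. Deviations of cor27cor28 and wild-type libraries with the same number correlated at -0.163, -0.184 and 0.0739. With different numbers the correlations lay between -0.0745 and 0.2115. The labels name no shared batch, so the samples were not treated as paired by number.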

Other observations

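Several genes outside the naming rule stood out and were picked after their values were seen. AT1G75945, a gene with no symbol in the annotation, had 60.2, 56.7 and 61.9 FPKM in cor27cor28, against 1.27, 1.12 and 2.56 FPKM in wild type (log2 fold change 4.55 ± 0.22 SE, adjusted p = 6.81e-07 in limma with Benjamini-Hochberg adjustment), and averaged 4.28 ± 1.74 FPKM in cop1-6. AT1G64795 had 34.5, 12.6 and 33.9 FPKM in cor27cor28, against 2.87 FPKM in wild-type replicate 1, and was listed at 0 in the other wild-type libraries and in all of cop1-6. AT2G18193, an AAA-type ATPase gene, had 21.1, 35.9 and 25.1 FPKM in cor27cor28, against 1.34, 2.53 and 4.62 FPKM in wild type. Its neighbour AT2G18190 had 6.42, 10.3 and 6.86 FPKM in cor27cor28, against 0, 0.363 and 1.06 FPKM in wild type. Both AAA genes had far higher levels in every cor27cor28 library, although as tandem copies their reads could be split between them. AT2G04050, a MATE carrier gene beside DTX1, had 50.4, 81.6 and 55.4 FPKM in cor27cor28, against 3.12, 5.81 and 8.37 FPKM in wild type, and 66.03 ± 26.8 FPKM in cop1-6.

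Some genes known to be switched on by low oxygen were also seen at the upper end. HB1, a haemoglobin that removes nitric oxide, was named by the rule and had 73.8, 73.95 and 46.2 FPKM in cor27cor28, against 8.25, 9.57 and 15.3 FPKM in wild type (log2 fold change 2.46 ± 0.42 SE, adjusted p = 0.00242). PCO1, a plant cysteine oxidase that marks oxygen-labile factors for breakdown, had 11.2, 11.4 and 10.9 FPKM in cor27cor28, against 3.69, 3.38 and 2.83 FPKM in wild type (1.51 ± 0.18 SE, adjusted p = 0.000391). ADH1, alcohol dehydrogenase, had 10.04, 9.36 and 6.94 FPKM in cor27cor28, against 1.71, 1.75 and 1.43 FPKM in wild type (1.88 ± 0.48 SE, adjusted p = 0.0159). HRA1, a trihelix factor, had 4.57, 4.57 and 5.17 FPKM in cor27cor28, against 1.59, 1.32 and 1.41 FPKM in wild type. None of these 4 genes had overlapping groups. PDC1, pyruvate decarboxylase, had 2.25, 1.73 and 1.56 FPKM in cor27cor28, against 0.425, 0.406 and 0.308 FPKM in wild type, and was not called in the model of all genotypes (adjusted p = 0.179) but was called with the 6 libraries alone (adjusted p = 0.00122). AlaAT1, alanine aminotransferase, likewise was not called in the model of all genotypes (adjusted p = 0.16) but was with the 6 libraries alone (0.33, adjusted p = 0.00827).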
